A study of Mus musculus with 3 samples.

Results

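The mouse mitochondrial genome carries 37 genes, and all 37 were found among the 55418 gene symbols of the series. They were chosen by name, as every annotated symbol that starts with mt-, and joined to the gene tables by gene identifier. They comprise 13 mRNAs, 2 rRNAs and 22 tRNAs. Every one lies on the mitochondrial chromosome in the GENCODE M21 annotation of mm10.

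The RNA came from the cytosolic fraction of primary bone marrow-derived macrophages of C57BL/6J mice. All cells had received lipid A, the membrane anchor of bacterial endotoxin, at 100 ng/ml for 90 min. Total RNA was depleted of ribosomal RNA, 1 µg went into each library, and the recorded size range was 250 to 400. There was 1 group of 3 libraries. The labels call them biological replicates 1, 2 and 3 but give 1 donor identifier, so the p-values measure only the spread between these libraries. Sex and age were not collected, and no untreated cells and no nuclear or mitochondrial fraction were analysed here. A response to lipid A and a distribution between compartments were therefore not measured.

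Mitochondrial DNA is a small circle that is transcribed from both strands into long precursor RNAs. In most of the genome, tRNAs stand between the mRNAs and rRNAs, and their excision frees the neighbouring transcripts. The mRNAs encode core membrane subunits of the respiratory chain and of ATP synthase, the rRNAs build the mitochondrial ribosome, and the tRNAs decode its messages. All other proteins of these complexes, and of the machinery that copies and processes mitochondrial RNA, are encoded in the nucleus.

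Annotated genes received 33671556, 47764593 and 59332546 expected counts in replicates 1, 2 and 3. All 10 macrophage markers lay above the reference defined further on, where 20.5% of all genes tested did. Their means lay between 20.6 TPM for Mertk and 4347 TPM for Lyz2. TPM expresses each gene as its length-corrected fraction of the transcripts in a library. The listed markers of neutrophils summed to 38.6, 21.3 and 36.2 TPM, nearly all of it on S100a8 and S100a9, with means of 12.2 and 19.3 TPM. The other neutrophil markers were low, with Elane, Mpo and Camp averaging 0.127, 0.193 and 0.263 TPM and Ly6g at 0. Those of T and NK cells, B cells and fibroblasts each summed to 0.14 TPM or less in every library. Of the erythroid and platelet markers, Pf4, which encodes a platelet chemokine, held 179, 131 and 179 TPM. The sum of that list was 180, 131 and 180 TPM.

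Several mitochondrial mRNAs have nuclear copies so similar that a short read cannot be placed, and the values of those genes turn on this. A run of 7 annotated pseudogenes on chromosome 1, between 24611535 and 24616197 on the minus strand of mm10, carries copies of mt-Nd4, mt-Nd4l, mt-Nd3, mt-Co3, mt-Atp6, mt-Co2 and the end of mt-Co1. Of these, 5 hold no base that differs from the mitochondrial gene over their whole annotated length. The last 40 bases of 3 members that received fewer reads than their copies are shown because only the capitals lie outside the annotated copy. Each is in the orientation of the mRNA, from the M21 transcripts.
mt-Co2: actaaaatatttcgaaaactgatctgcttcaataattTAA
mt-Atp6: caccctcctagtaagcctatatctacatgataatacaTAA
mt-Co3: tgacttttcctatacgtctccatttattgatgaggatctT

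These ends lie at chrM:7657-7696 for mt-Co2, chrM:8568-8607 for mt-Atp6 and chrM:9351-9390 for mt-Co3, all on the plus strand. The copy of mt-Co2 (Gm28661) covered 681 bases, that of mt-Atp6 (Gm10925) 678 and that of mt-Co3 (Gm28437) 783, with 0 mismatches. The 2 copies on chromosome 1 that do differ are shown from their first base beside the matching bases of the member, with the differing bases in capitals.
mt-Nd3: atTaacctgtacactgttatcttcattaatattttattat
Gm28438: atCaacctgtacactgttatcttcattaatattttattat
mt-Co1: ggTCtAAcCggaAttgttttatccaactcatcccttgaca
Gm29216: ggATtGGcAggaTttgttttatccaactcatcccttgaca

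The mt-Nd3 stretch is chrM:9459-9498 on the plus strand and its copy is chr1:24613080-24613119 on the minus strand. With positions counted from 1 at the first base of the mitochondrial gene, the substitution is T3C. The mt-Co1 stretch is chrM:6381-6420 on the plus strand and its copy is chr1:24616158-24616197 on the minus strand. Its 6 substitutions were T1056A, C1057T, A1059G, A1060G, C1062A and A1066T, and none followed up to the end of the gene at base 1545. Fragments past these bases are the same in gene and copy.

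The mRNAs were among the abundant RNAs of this cytosolic fraction. Level was tested against the median of 8734 nuclear protein-coding genes averaging 1 TPM or more, which was 7.37, 6.07 and 6.20 TPM in replicates 1, 2 and 3. A call needed an adjusted p under 0.05 (limma, one-sample moderated test on log2(TPM + 0.1), Benjamini-Hochberg over all genes tested) and a log2 difference of at least 1. By this rule 12 of 13 mRNAs lay above the reference and 0 below, where 20.5% of all 13327 genes tested lay above and 50.6% below. The median of the 13 mRNAs was 5.32 log2 units above the reference, and that of all genes tested was -1.06. In bulk RNA, fewer cells with a transcript and less of it per cell cannot be told apart. An exact sign-flip test over 3 libraries cannot go below p = 0.25.

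**Figure D1:**
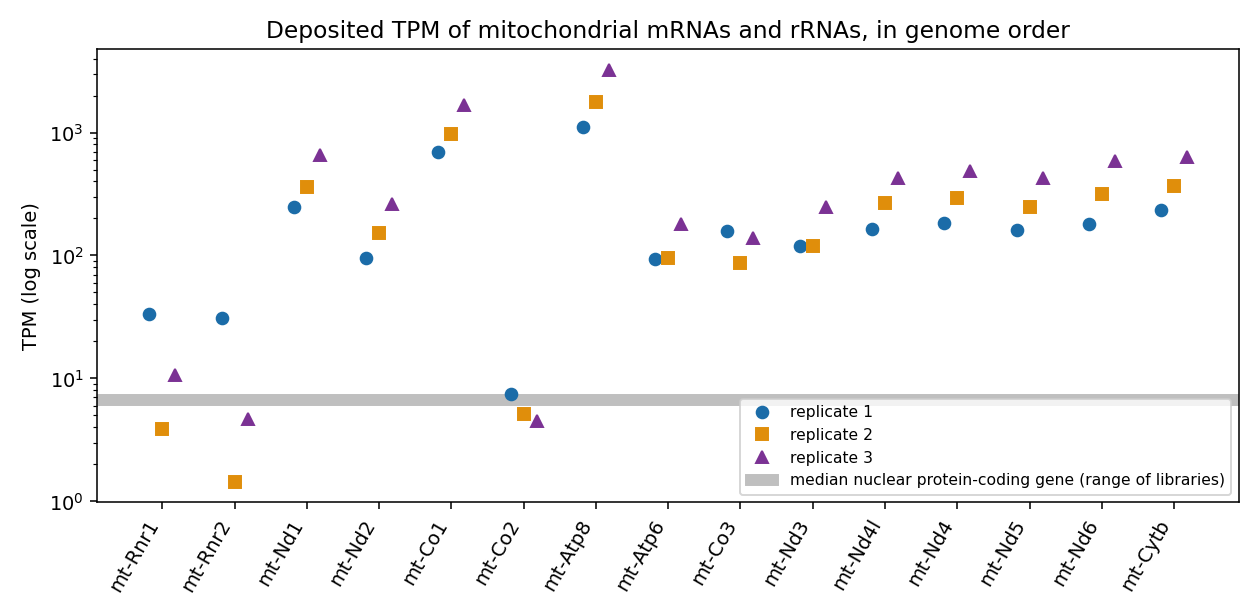
Deposited TPM (log axis) of the mitochondrial rRNAs and mRNAs in genome order, with 1 symbol per library and a grey band for the median nuclear protein-coding gene. All mRNAs except mt-Co2 lie above the band in every library, and both rRNAs are highest in replicate 1.

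Of the subunits of complex IV, cytochrome c oxidase, which passes electrons to oxygen, mt-Co1 is the catalytic core that binds heme and copper. This gene (chrM:5328-6872, plus strand) had 694, 977 and 1663 TPM in replicates 1, 2 and 3. Its log2 level relative to the reference was 7.30 ± 0.75 (SD, n = 3, limma adjusted p = 0.000133). It was well above the reference in every library. The mt-Co2 subunit takes electrons from cytochrome c, and its gene (chrM:7013-7696, plus strand) had 7.46, 5.16 and 4.48 TPM. That placed it -0.22 ± 0.24 log2 units from the reference (limma adjusted p = 0.137), the single mRNA without a call. The mt-Co3 subunit is a core membrane protein of the complex, and its gene (chrM:8607-9390, plus strand) had 158, 86.1 and 138 TPM, 4.22 ± 0.36 log2 units above the reference (limma adjusted p = 9.24e-05).

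The copies of mt-Co2 and mt-Co3 held more reads than the genes themselves. Gm28661, the copy of mt-Co2, was listed at 696, 894 and 1565 TPM. With each member and its copies summed, mt-Co2 lay 7.24 ± 0.70 log2 units above the reference (limma adjusted p = 0.000114) and 13 of 13 mRNAs were above it. Gm28437, the copy of mt-Co3, was listed at 366, 641 and 1187 TPM. The copy of the end of mt-Co1, Gm29216, was listed at 193, 354 and 577 TPM, below mt-Co1 in each library.

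The 2 mitochondrial subunits of complex V, ATP synthase, are mt-Atp6, which forms part of the proton channel, and the small membrane protein mt-Atp8. The gene mt-Atp8 (chrM:7766-7969, plus strand) had 1101, 1756 and 3223 TPM, the highest mRNA on this scale, at 8.12 ± 0.90 log2 units over the reference (limma adjusted p = 0.000156). The gene mt-Atp6 (chrM:7927-8607, plus strand) had 93.4, 96.1 and 181 TPM, 4.15 ± 0.62 log2 units above it (limma adjusted p = 0.000363). Its copy Gm10925 was listed at 377, 540 and 895 TPM.

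These 2 genes sit on 1 messenger and share 43 bases, as do mt-Nd4l and mt-Nd4 with 7. The ends of the upstream genes are shown with the shared bases in capitals, because reads there belong to both genes.
mt-Atp8: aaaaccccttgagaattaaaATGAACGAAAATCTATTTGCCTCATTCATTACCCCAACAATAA
mt-Nd4l: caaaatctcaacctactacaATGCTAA

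The first stretch is chrM:7907-7969 and the second chrM:10147-10173, both on the plus strand. In deposited TPM, mt-Atp8 was 15.7-fold above mt-Atp6, and in the second quantification 1.32-fold. In reads per kilobase with copies added it was 2.19-fold below. The deposited effective length of mt-Atp8, the number of start positions open to a fragment, was 19.3, 25.6 and 25.9 bases out of 204, so its expected counts of 1266, 4236 and 9570 were divided by a very small number. For mt-Nd4l it was 76.5, 94.4 and 94.5 of 297 bases.

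Complex I, NADH dehydrogenase, takes electrons from NADH and pumps protons. Its 7 mitochondrial subunits are membrane proteins, and all 7 mRNAs lay above the reference. On deposited TPM mt-Nd1 (chrM:2751-3707, plus strand) was the highest, with 246, 361 and 656 TPM in replicates 1, 2 and 3. Relative to the reference its log2 level was 5.87 ± 0.83 (limma adjusted p = 0.000302).

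The gene mt-Nd2 (chrM:3914-4951, plus strand) had 95.3, 151 and 262 TPM, 2.49-fold below its neighbour mt-Nd1. This ratio was close on all 3 scales, with 2.46 in the second quantification and 2.43 in reads with copies. Neither gene has a copy in the list.

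The genes mt-Nd4 (chrM:10167-11544) and mt-Nd4l (chrM:9877-10173) lie next to each other on the plus strand. The former had 184, 291 and 488 TPM and the latter 163, 268 and 426 TPM. Gm28439, the copy of the first 876 bases of mt-Nd4, was listed at 0 counts in all 3 libraries of the first quantification and at 399, 1777 and 4408 in the second. For mt-Nd4l the reverse held: its copy Gm10222 had 857, 2422 and 6223 expected counts in the first and 0 in the second.

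The gene mt-Nd5 (chrM:11742-13565, plus strand), which encodes a proton-pumping subunit, had 161, 249 and 429 TPM. The short gene mt-Nd3 (chrM:9459-9806, plus strand) had 121, 118 and 250 TPM, and its copy Gm28438 161, 204 and 328 TPM. The last subunit gene, mt-Nd6 (chrM:13552-14070), is the single mRNA on the minus strand and had 179, 319 and 592 TPM. It overlaps mt-Nd5 by 14 bases, and no source used here says if reads were counted by strand. The levels of these 3 genes were 5.28 ± 0.83, 4.53 ± 0.69 and 5.61 ± 0.99 log2 units above the reference for mt-Nd5, mt-Nd3 and mt-Nd6.

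Complex III hands electrons from ubiquinol to cytochrome c, and its one mitochondrial subunit is cytochrome b. The gene mt-Cytb (chrM:14145-15288, plus strand) had 233, 369 and 632 TPM, 5.84 ± 0.85 log2 units above the reference (limma adjusted p = 0.000323). No copy of it met the rule, and it stood beside mt-Nd1 in the order of levels on all 3 scales.

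How reads were divided between gene and copy differed by gene and by quantification. The authors deposited gene values from transcriptome alignments (the first quantification, used above) and transcript values from the sequencing files (the second). The first placed 1.07, 0.58 and 0.29% of the reads of mt-Co2 and its copies on mt-Co2, and the second 12.1, 3.71 and 5.13%. For mt-Atp6 the shares were 20.0, 15.2 and 16.9% in the first and 98.2, 98.9 and 98.9% in the second. The 2 quantifications thus gave most of these reads to opposite loci.

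Of the other pairs, mt-Nd3 was divided most evenly, with 43.3, 37.2 and 43.8% on the gene in the first quantification. The share on mt-Co3 was 30.2, 11.9 and 10.4% in the first quantification and 42.7, 29.8 and 41.6% in the second. The share on mt-Nd4l was 46.5, 49.6 and 42.6% in the first and 100% in each library of the second. The mt-Co1 gene kept 94.8, 92.9 and 93.2% in the first, with Gm29216 covering 492 of its 1545 bases. The mt-Nd4 gene kept 100% there, with Gm28439 covering 876 of its 1378 bases. The part of the length of the copy in these shares was not tested.

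**Figure D2:**
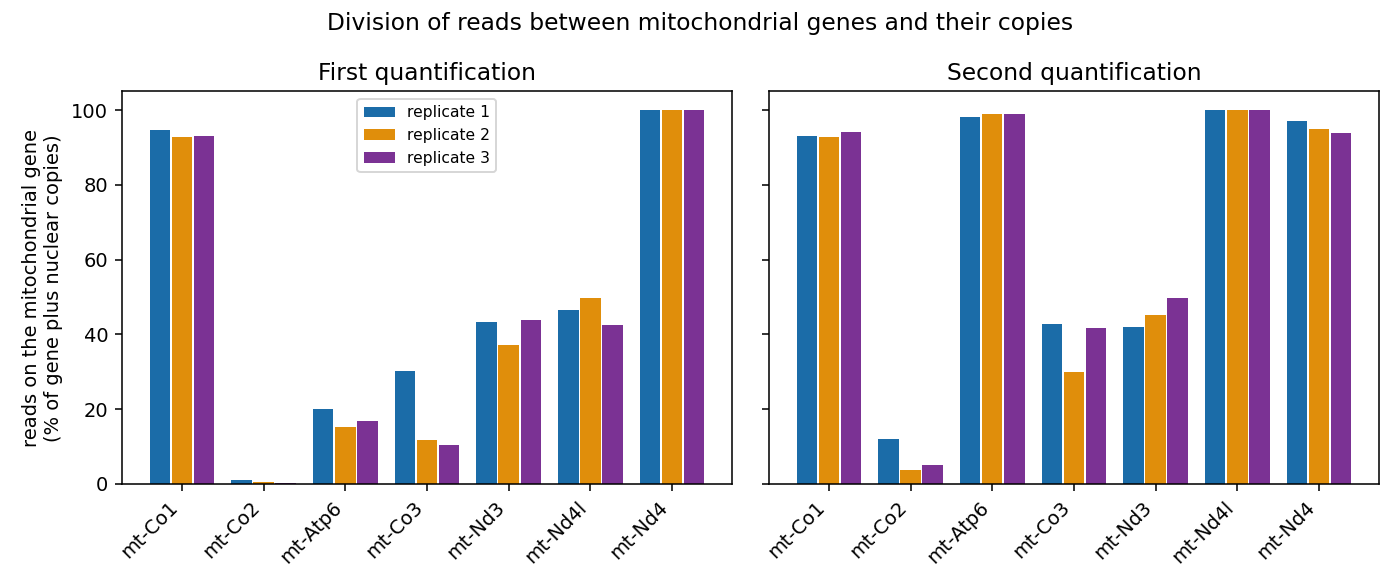
Percent of the reads of a mitochondrial gene and its nuclear copies that were placed on the mitochondrial gene, for the 7 genes with a copy on chromosome 1, in both quantifications, with 1 bar per library. The bars of mt-Atp6 lie at 20.0% or less in the first quantification and at 98.2% or more in the second.

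The authors also deposited a posterior SD for each count of the first quantification. For mt-Co2 the expected counts were 199, 230 and 244, while the posterior means were 1982, 5757 and 12507 with posterior SDs of 820, 2079 and 2428. The expected count thus lay more than 2 posterior SDs under the posterior mean in each library. For mt-Nd4 the posterior SDs were 6.66, 5.48 and 8.26 at counts of 12542, 32053 and 65394. The reads of all copies made up 26.9, 28.0 and 28.4% of the reads on mRNAs and copies together in the first quantification and 18.5, 19.4 and 18.1% in the second.

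Tested over all genes, 1 member was higher in the first quantification and 9 were lower, where 1.93% and 2.72% of 9481 genes were called in these directions. The rule was a centred log2 ratio of at least 1 in size and an adjusted p under 0.05 (limma). The higher one was mt-Atp8, by 1.16 ± 0.12 log2 units (limma adjusted p = 0.00392). The lower ones were mt-Co2, at -3.29 ± 0.70, mt-Atp6, at -2.41 ± 0.19, and 7 tRNAs. The first quantification listed these tRNAs at 0 with an effective length of 0, and they entered the test through the second alone, so their direction was fixed in advance and their calls carry no information. That leaves mt-Co2 and mt-Atp6 as the lower members with a value in both. With copies summed, mt-Co2 was at 0.14 and mt-Atp6 at 0.11, and neither was called.

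With copies added and counts divided by annotated length, the 3 mRNAs of complex IV held the top 3 places. The other complexes did not group in this way, since mt-Atp6 and mt-Atp8 of complex V held places 4 and 9. CPM per kilobase, that is counts scaled to library depth and gene length, were 1096, 1795 and 2985 for mt-Co1 in replicates 1, 2 and 3. They were 811, 1221 and 2090 for mt-Co2, and 647, 1048 and 1873 for mt-Co3. Next came mt-Atp6 with 541, 863 and 1431, followed by mt-Cytb, mt-Nd1, mt-Nd4, mt-Nd5, mt-Atp8, mt-Nd6, mt-Nd4l, mt-Nd3 and mt-Nd2. The lowest, mt-Nd2, had 130, 238 and 404, so that mt-Co1 was 7.77-fold above it. Dividing by annotated rather than effective length lowers short genes most. In replicate 2 the effective length was 25.6 of 204 bases for mt-Atp8, 94.4 of 297 for mt-Nd4l and 141 of 348 for mt-Nd3. It was 308 of 519 for mt-Nd6 and 1334 of 1545 for mt-Co1. The places of short genes hold for this scale only: mt-Nd6 was 1.21-fold below mt-Nd5 here and 1.25-fold above it in deposited TPM. This scale, and the order in the second quantification given next, were chosen after seeing the data.

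Of the 12 pairs of neighbours in this order, 9 differed beyond their spread, taken as the same sign of the log2 ratio in all 3 libraries and a mean beyond its SD. The neighbours mt-Cytb and mt-Nd1, mt-Nd5 and mt-Atp8, and mt-Nd4l and mt-Nd3 did not. By deposited TPM 6 of 12 pairs of neighbours differed beyond their spread. That order ran from mt-Atp8 and mt-Co1 at the top to mt-Co3, mt-Atp6 and mt-Co2 at the bottom. The neighbours mt-Co3 and mt-Atp6 did not differ beyond their spread. In the second quantification 7 of 12 pairs did, with mt-Co1 first and mt-Co2 last.

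**Figure D3:**
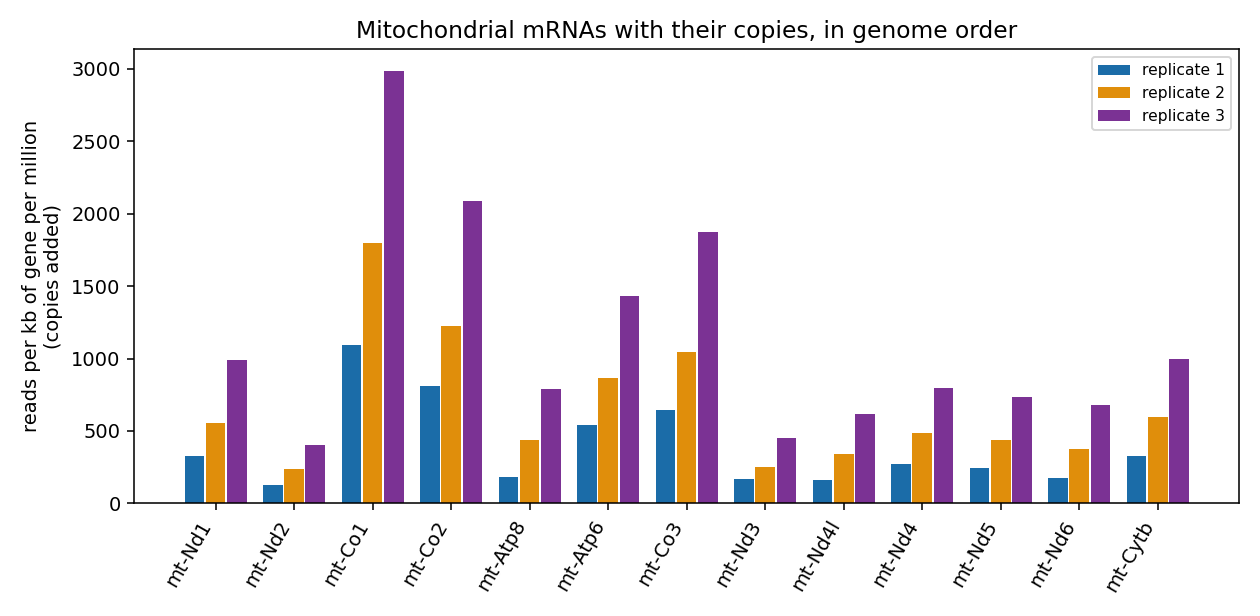
Reads of each mitochondrial mRNA with its copies, as CPM per kilobase of annotated length, in genome order, with 1 bar per library from an axis at 0. The bars of mt-Co1 are the tallest in each library, and for every mRNA replicate 3 is the tallest and replicate 1 the shortest.

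The amount of mitochondrial mRNA differed between libraries, and its make-up differed little. The mRNAs took 0.366, 0.606 and 1.02% of expected counts in replicates 1, 2 and 3 (mean 0.665 ± 0.332, SD), or 0.500, 0.842 and 1.43% with copies. Within these reads the genes of complex IV held 53.4 ± 1.42%, those of complex I 30.7 ± 1.17%, those of complex V 8.03 ± 0.0836% and mt-Cytb 7.85 ± 0.335%. The gene mt-Co1 alone held 33.8, 33.0 and 32.3%. Larger relative spread was seen in mt-Atp8, with a coefficient of variation of 20.4%, in mt-Nd6, with 16.1%, and in mt-Nd4l, with 14.99%, whereas the other mRNAs had 2.35 to 6.24%. These shares are not corrected for effective length, which was lowest in replicate 1. In replicates 1, 2 and 3 it was 19.3, 25.6 and 25.9 bases for mt-Atp8 and 76.5, 94.4 and 94.5 for mt-Nd4l. For mt-Nd6 it was 284, 308 and 309. For mt-Nd3, with a coefficient of variation of 5.68%, it was 120, 141 and 141. The part of effective length in the spread of these shares was not tested.

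Spread between libraries was tested as the fit of each gene's counts to the dispersion of genes of like abundance (edgeR, goodness of fit, Holm adjustment over all genes). Of 15 members tested, 12 spread more than this trend, where 1.01% of 12330 genes did. The median SD of log2 CPM (counts scaled to library depth) was 0.84 over the mRNAs and 0.12 over all genes. The called mRNAs were 10 of 13, all but mt-Co1, mt-Co2 and mt-Co3. With copies summed it was 14 of 15, mt-Co1 being the exception (edgeR Holm-adjusted p = 0.153).

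With copies added, all 13 mRNAs were highest in replicate 3 and lowest in replicate 1, the highest library being 2.58 to 4.29 times the lowest. Without copies, log2 CPM rose from replicate 1 to 2 to 3 in 11 of 13 mRNAs. The same order was seen in 2974 of all 12330 genes tested and in 7 of 47 nuclear-encoded respiratory subunits. Leaving out replicate 1 or replicate 3 lowered the count of members called from 12 to 6, and leaving out replicate 2 gave 11. The share called over all genes fell as well, to 0.479% without replicate 1, 0.283% without replicate 3 and 0.564% without replicate 2. At an unadjusted p under 0.05 the counts were 14, 14 and 13 without replicates 1, 3 and 2.

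The nuclear-encoded subunits of the same complexes had a median SD of log2 CPM of 0.06, against 0.84 for the mitochondrial mRNAs and 0.12 for all genes. Of 47 listed subunits of complexes I, III, IV and V, 42 were above the reference and 0 were below it, beside 20.5% and 50.6% of all genes tested. By edgeR 0 of 47 were called for spread, which is near the 1.01% over all genes. At an unadjusted p under 0.05 the count was also 0, where 723 of 12330 genes passed. Their summed level was 2794, 2117 and 2100 TPM in replicates 1, 2 and 3. The highest of each complex were Ndufa1 at 67.4 ± 10.1 TPM, Uqcrh at 84.1 ± 16.9, Cox4i1 at 191 ± 34.3 and Atp5b at 136 ± 28.1 (SD, n = 3). The list median lay 2.51 log2 units above the reference, below the 5.32 of the mitochondrial mRNAs; the difference itself was not tested.

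Beside this, Malat1 and Neat1, long noncoding RNAs that are kept in the nucleus, had 128, 335 and 913 TPM and 12.9, 24.1 and 66.9 TPM in replicates 1, 2 and 3. They too were highest in replicate 3 and lowest in replicate 1, as was sequencing depth. Both were called for spread (edgeR, Holm-adjusted p of 1.3e-14 and 4.52e-21). Of 6 listed RNAs kept in the nucleus, 5 were tested and 3 called, beside 1.01% of all genes. Kcnq1ot1 was also called, and Airn and Firre were not. The part of nuclear RNA, or of depth, in the spread of the mitochondrial mRNAs was not tested.

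**Figure D4:**
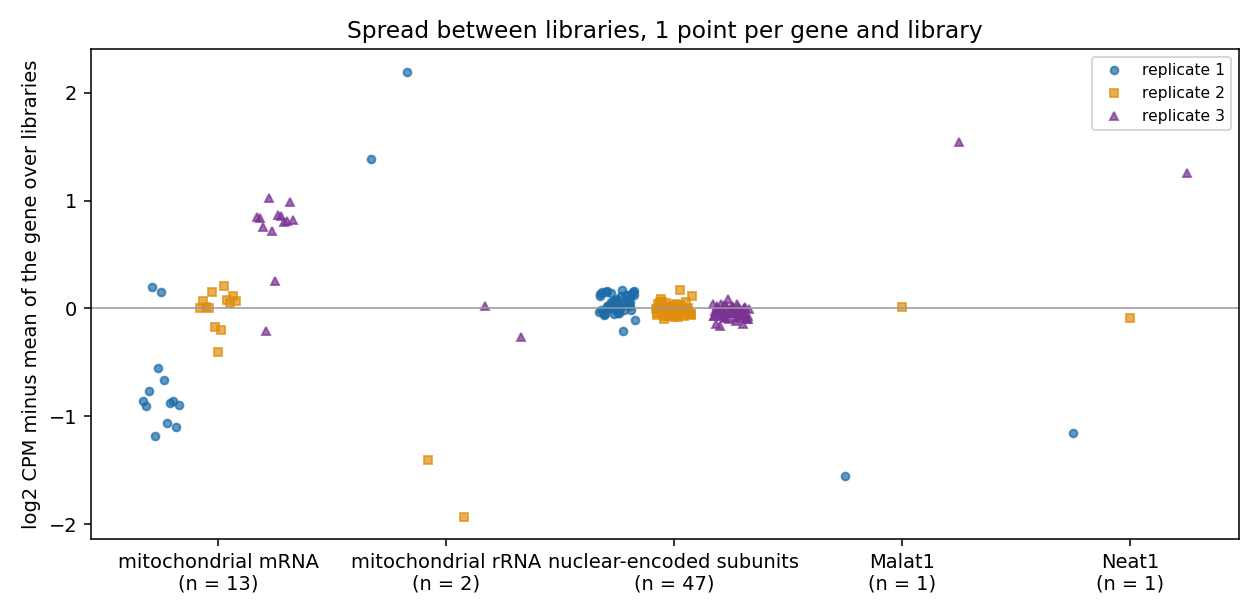
Log2 CPM of each gene minus its mean over the 3 libraries, with 1 point per gene and library, for the mitochondrial mRNAs and rRNAs without copies, 47 nuclear-encoded respiratory subunits, Malat1 and Neat1. Most mitochondrial mRNAs are low in replicate 1 and high in replicate 3, both rRNAs are high in replicate 1, and the nuclear-encoded subunits stay near 0.

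The 2 rRNAs are the RNA cores of the small and large subunits of the mitochondrial ribosome. Their mean TPM lay below that of every mRNA except mt-Co2. Their order of libraries differed from that of the mRNAs with copies added. The small subunit rRNA, mt-Rnr1 (chrM:70-1024, plus strand), had 33.5, 3.89 and 10.7 TPM. The large subunit rRNA, mt-Rnr2 (chrM:1094-2675, plus strand), had 30.9, 1.44 and 4.67 TPM. Both were highest in replicate 1 and lowest in replicate 2. Of the mRNAs, mt-Co3 had the same order in deposited TPM and mt-Co2 in the second quantification, and none had it once copies were added.

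Neither rRNA was called above or below the reference, with 0.77 ± 1.40 log2 units for mt-Rnr1 (limma adjusted p = 0.287) and -0.12 ± 2.04 for mt-Rnr2 (limma adjusted p = 0.904). Both were called for spread (edgeR Holm-adjusted p of 1.95e-22 and 1.42e-60). There were 2.32, 0.114 and 0.194 rRNA counts for every 100 counts on mRNAs and their copies. In the second quantification the values were 2.73, 0.334 and 0.618, higher mainly in replicates 2 and 3. Without replicate 1 the mean rRNA share of expected counts fell from 0.00512% to 0.00187%, so it rests largely on that library. These values describe RNA left after depletion of ribosomal RNA, so they give no level of rRNA in the cells, and the part of the depletion in their spread was not tested.

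The 22 tRNAs were listed at 0 counts in all libraries of the first quantification, which also gave each of them an effective length of 0, so no level was measured there. They are 59 to 75 bases long, under the recorded size range. In the second quantification they held 222, 370 and 791 estimated reads in all, or 0.000563, 0.000633 and 0.001% of annotated reads. These few reads were unequally divided between the tRNA genes of the plus and minus strands.

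The 8 tRNAs encoded on the minus strand held 211, 356 and 761 of the reads in replicates 1, 2 and 3, which is 95.05, 96.2 and 96.2%. The 14 on the plus strand, where the rRNAs and 12 mRNAs also lie, held 11, 14 and 30. No source used here says if reads were counted by strand, so the strand given is that of the gene and not of the RNA read. All 6 tRNAs with a mean of at least 10 estimated reads were minus-strand genes, and their sequences are shown 5′ to 3′ as encoded, with the anticodon in capitals.
mt-Tp: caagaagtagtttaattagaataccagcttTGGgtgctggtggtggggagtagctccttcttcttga
mt-Te: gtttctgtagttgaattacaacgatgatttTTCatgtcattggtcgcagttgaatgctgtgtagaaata
mt-Ts1: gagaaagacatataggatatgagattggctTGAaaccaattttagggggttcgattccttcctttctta
mt-Tc: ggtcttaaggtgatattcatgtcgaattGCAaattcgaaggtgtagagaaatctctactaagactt
mt-Tn: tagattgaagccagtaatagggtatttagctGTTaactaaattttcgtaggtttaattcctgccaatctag
mt-Ty: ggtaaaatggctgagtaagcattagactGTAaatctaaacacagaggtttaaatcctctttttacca

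The proline tRNA mt-Tp (chrM:15356-15422) held 121, 183 and 353 estimated reads, more than any other tRNA in each library. The glutamate tRNA mt-Te (chrM:14071-14139), next to mt-Nd6, held 27, 60 and 124. The serine tRNA mt-Ts1 (chrM:6870-6938), which overlaps the end of mt-Co1 on the other strand, held 27, 43 and 125. All 3 were highest in replicate 3.

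The other named tRNAs come from the cluster between mt-Nd2 and mt-Co1. The cysteine tRNA mt-Tc (chrM:5192-5257) held 16, 33 and 76 estimated reads, the asparagine tRNA mt-Tn (chrM:5089-5159) 5, 19 and 38, and the tyrosine tRNA mt-Ty (chrM:5260-5326) 10, 11 and 26. The remaining 16 tRNAs had means of 0 to 7.33, and 2 of them, mt-Ti and mt-Td, were at 0 in all 3 libraries. Whether the reads came from mature tRNAs or from longer RNAs that span them was not tested.

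**Figure D5:**
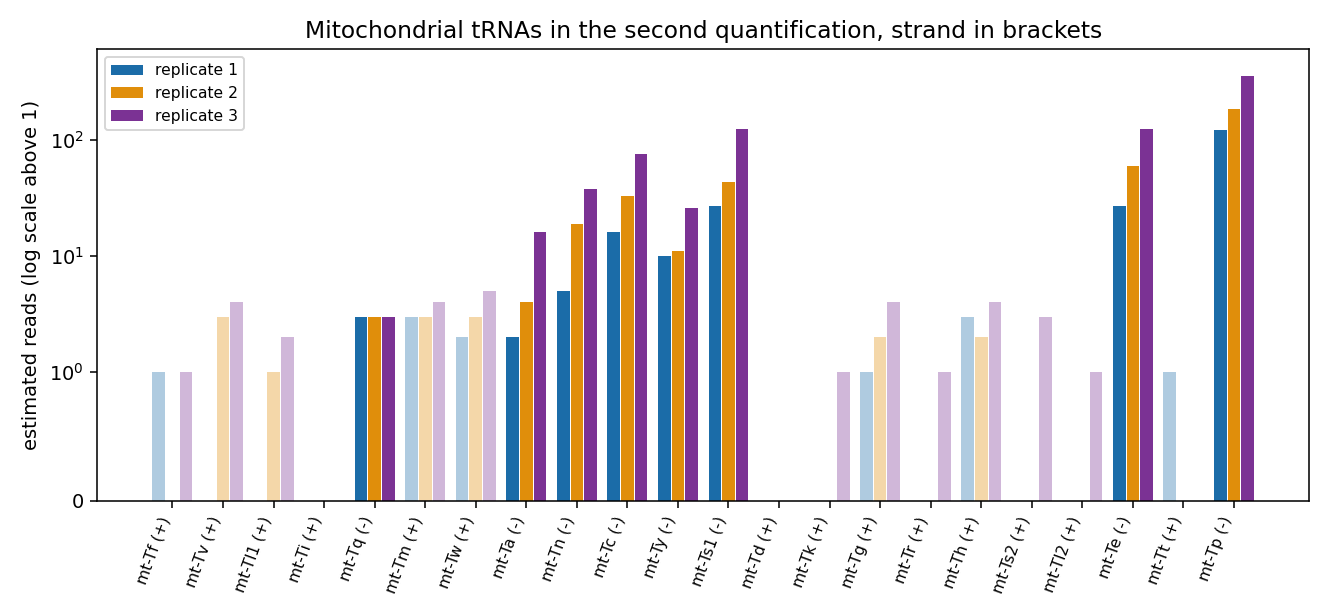
Estimated reads of the 22 mitochondrial tRNAs in the second quantification, in genome order, with 1 bar per library (log axis above 1, linear below). Full colour marks minus-strand genes and pale colour plus-strand genes, and all tRNAs that pass 10 reads in any library lie on the minus strand.

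Listed nuclear genes for the upkeep and transcription of mitochondrial DNA and for the processing, modification and decay of its RNA were more often below the reference than above it. Of 47 found, 45 were tested, with 2 above (20.5% over all genes), 31 below (50.6% over all genes) and 12 without a call, and a list median of -1.96 log2 units beside -1.06 for all genes. By edgeR 0 of 45 were called for spread, near the 1.01% over all genes. At an unadjusted p under 0.05 the count was also 0, where 723 of 12330 genes passed. The 5 highest were Slirp at 16.2 ± 4.43 TPM, a partner of the mRNA-stabilising protein LRPPRC, the oligoribonuclease gene Rexo2 at 16.0 ± 1.10, the RNA granule protein gene Grsf1 at 9.47 ± 1.24, Hsd17b10, a subunit of mitochondrial RNase P, at 8.89 ± 1.84, and the RNA methyltransferase gene Nsun2 at 8.29 ± 0.789 (SD, n = 3).

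Among these 5, Slirp and Rexo2 were the 2 called above the reference, by 1.27 ± 0.22 and 1.28 ± 0.06 log2 units (limma adjusted p of 0.000768 and 0.000126). The lowest with at least 0.1 TPM were the rRNA methyltransferase genes Mrm2 and Mrm3, at 0.197 and 0.433 TPM, the DNA helicase gene Twnk at 0.28, the polymerase subunit gene Polg2 at 0.29 and the termination factor gene Mterf1a at 0.473. All 5 lay below the reference, but they were picked as the lowest, so this adds nothing to the counts for the list.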

How the data were processed

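Per the text descriptions deposited with the files, the authors used mm10 and GENCODE M21. The deposited expected counts, TPM, FPKM, effective lengths and posterior SD (a score of uncertainty) of the first quantification, per the file headers, follow the layout of RSEM; the estimated counts and TPM of the second follow that of kallisto. No source used here names the tools or versions.

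Of 81881 entries, 55536 annotated genes were used, and the rest, among them 26248 numbered entries, were not. Expected counts were rounded for edgeR 4.0.16 (TMM scaling, at least 10 counts in every library, prior count 2). TPM were tested as log2(TPM + 0.1) with limma 3.58.1 in R 4.3.3, for genes averaging 0.1 TPM or more; the ratio of quantifications for genes with at least 1 TPM in either. FPKM and DESeq2 1.42.0 size factors served as alternatives. A fold on the log2(TPM + 0.1) scale understates low genes. Copies were annotated genes found by BLAST+ at 95% identity over at least 50% of a member, or members of a list of known copies that matched at this identity over a shorter stretch; 11 copies of 9 members were used, and 2 listed copies had no such match. Sequences came from the M21 transcripts.

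Annotated depth was 33671556 to 59332546 counts; a count of 0 allows 3 counts (0.0891 to 0.0506 CPM), for counting error only. All 13 mRNAs and both rRNAs were named. The rule for tRNAs, a mean of at least 10 expected counts, was met by none in the first quantification and was applied to the second. Members and lists were chosen with earlier results of these data known. The steps were tested on simulated data.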

Additional observations from a re-analysis of the deposited data

How the results depend on the processing

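The count of members above the reference stayed within 1.5 times 12 under every alternative run. The count below, 0, became 22 with no filter on low values (the tRNAs at 0), 1 with a reference of at least 5 TPM (mt-Co2) and 10 in the second quantification. The sign of mt-Rnr2 changed with a pseudocount of 1 TPM (0.017), with FPKM (0.092), in the second quantification (0.91) and without replicates 2 (0.84) or 3 (0.034), against -1.23 without replicate 1, and that of mt-Rnr1 with a reference of at least 5 TPM (-0.25), none of them called. The level of mt-Co2 became 2.61 in the second quantification and 7.24 with copies. The members called for spread ranged from 6 to 11 with 1 replicate left out, where 0.283 to 0.564% of all genes were called. The members lower in the first quantification became 16 with a filter at 0.1 TPM, a rise that follows from the construction, since the looser filter admits further tRNAs that have no value in the first. The mRNA share of TPM, 0.581%, became 2.53% over protein-coding and mitochondrial genes, 0.22% in the second quantification and 0.916% with copies; the rRNA share of TPM, 0.00284%, became 0.0111% over protein-coding and mitochondrial genes and 0.00103% without replicate 1. The tRNA share, 0, became 0.000732% of counts and 0.00909% of TPM in the second quantification. No paired analysis was possible because the libraries form 1 group. With 3 libraries of 1 treatment, levels of genes with copies hold only as sums with the copies, and tRNA values rest on few reads.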

Other observations

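The base composition of the transcripts followed the strand. The minus-strand mRNA mt-Nd6 had 28.1% G and 5.97% C, whereas the 12 plus-strand mRNAs had 5.88 to 16.1% G and 22.1 to 30.0% C. Of the 13 annotated mRNAs, 9 began with ATG, and the others were mt-Nd1 with GTG, mt-Nd2 with ATA, mt-Nd3 with ATT and mt-Nd5 with ATC. The annotated ends of mt-Co3, mt-Nd4 and mt-Cytb stop at the single T of an incomplete stop codon, which polyadenylation is known to complete. Copies elsewhere held few reads: Gm13340, a copy of mt-Co1 on chromosome 2, had 3.01, 19.1 and 53.4 expected counts, and Gm13341, a copy of mt-Co2 there, had 1.02, 9.26 and 9.24. Gm4076, a copy of mt-Nd5, and Gm43841, which matches part of mt-Tt, were at 0.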
